A study of Mus musculus with 8 samples.

Results

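Interferon-stimulated genes and genes of MHC class I antigen presentation were examined in endothelial cells of mouse embryonic brain. The set holds 33 named genes, of which 24 belong to the antiviral interferon response and 9 to class I presentation, out of 24421 gene rows. The members are given by name, and all 33 were found in the table. In the test described here, 21 antiviral and 8 class I members had enough counts to enter, and Ifit1, Ifit3, Mx1 and Nlrc5 did not.

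RNA was sequenced from 8 libraries at stage E14.5, all on the C57Bl6 background: 4 were heterozygous for a mutation of Flvcr2, a membrane transporter gene, and 4 were homozygous knockouts. The mutant allele drives GFP, so both genotypes carry it, and the comparison is between heterozygous and knockout cells with no wild-type group. Cells were sorted as positive for GFP and for CD31, a surface protein of endothelial cells, and 2000 to 5000 cells went into each library. Where a library is named by genotype and number below, the number is the one in its label. Flvcr2 itself was not analysed here, so its level gives no check of the genotype labels. Nothing in the labels says that libraries came from separate embryos, so p-values describe the spread between these libraries, which may be technical in part.

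Interferons are secreted proteins that cells release on sensing foreign nucleic acid. Type I interferons bind the receptor Ifnar1/Ifnar2, whose kinases Jak1 and Tyk2 phosphorylate Stat2. With Irf9 it is part of a transcription factor complex that binds the interferon-stimulated response element, and the targets of the complex include restriction factors, nucleic acid sensors and the factors Irf7, Stat2 and Irf9 themselves. MHC class I molecules consist of a heavy chain (H2-K1 and H2-D1 in this strain) and the light chain B2m, and they present peptides that proteasomes cut and the Tap1/Tap2 transporter pumps into the endoplasmic reticulum. Nlrc5 is a coactivator of class I genes, and Irf1 raises several of them.

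Libraries held between 9.11 and 35.9 M counts. Levels are given as CPM, counts scaled to a common library total by the TMM method. All 12 endothelial markers entered the test, and their summed level ran from 6724 to 12435 CPM over the 8 libraries. Transcripts of other cell types were present too. Called lower in knockout were 7 of 12 neuron, 3 of 10 radial glia, 2 of 9 pericyte and 2 of 4 erythroid markers tested. Over all tested genes, 4.02% were called lower. The 16 microglia and macrophage markers summed to 1139 to 2506 CPM in heterozygous and 532 to 1553 CPM in knockout libraries. In this list 1 of 16 (Ctss) was called lower, against the same 4.02%. Of the 16, 15 had a log2 fold change below 0, with a median of -1.25. Their mean log2 CPM differed between the genotypes by -1.34, against -1.32 for the antiviral members. The part of these transcripts in the members' values was not tested beyond the fits with covariates given at the end. In bulk RNA, fewer cells of a type and less RNA per cell cannot be told apart.

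Letters of the response element occur close to the start of several members. The stretches below, from RefSeq and written 5′ to 3′ in the gene's direction, show them for some of these. Of the 33 members, 26 have a promoter in the RefSeq table for GRCm38.p6. The core of the element, GAAA followed by any 2 bases and GAAA again, was searched on both strands in the 250 bases before each start. It occurred in 8 of 19 antiviral members with a promoter, in 1 of 7 class I members and in 3.46% of all 27025 genes of the table. Capitals mark every match, and TTTC, any 2 bases and TTTC is the same core on the other strand. Rsad2 is the only member called with all libraries that has a match. The called members Irf9, Irf7, Oasl2 and Tap1 have none, and Tap2 has no promoter in the RefSeq table. B2m, Ifitm2 and Bst2 are the next members with a match by mean CPM, and none was called with all libraries. Isg15 and Ifit1, chosen after their values were seen, are shown because they stood far apart in heterozygous 4.
Rsad2 (chr12:26456538-26456597, minus strand): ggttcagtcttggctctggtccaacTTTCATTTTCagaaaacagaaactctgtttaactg
B2m (chr2:122147523-122147582, plus strand): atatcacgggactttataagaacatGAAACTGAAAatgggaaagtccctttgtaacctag
Ifitm2 (chr7:140955973-140956032, minus strand): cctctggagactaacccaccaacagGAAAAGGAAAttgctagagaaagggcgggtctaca
Bst2 (chr8:71537562-71537627, minus strand): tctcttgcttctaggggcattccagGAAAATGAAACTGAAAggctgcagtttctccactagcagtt
Isg15 (chr4:156200850-156200921, minus strand): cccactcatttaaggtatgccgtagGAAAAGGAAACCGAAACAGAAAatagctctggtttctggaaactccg
Ifit1 (chr19:34640760-34640838, plus strand): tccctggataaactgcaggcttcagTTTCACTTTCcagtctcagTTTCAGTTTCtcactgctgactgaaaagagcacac
Isg15 holds 3 overlapping matches in this window, Bst2 2 overlapping ones and Ifit1 2 separate ones. The Stat-site letters TTCNNNGAA occurred in 4 of 19 antiviral and 1 of 7 class I promoters, against 8.13% of all genes, and CCAAT in 6 of 19 and 6 of 7, against 37.5%. A match describes letters and is no evidence of binding, and no match says only that these letters are not in this window.

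Knockout libraries had less RNA of 4 antiviral genes and more of the 2 subunits of the peptide transporter. Of 21 tested antiviral members, Irf9, Irf7, Rsad2 and Oasl2 fell and 0 rose, and the median log2 fold change over all 21, knockout against heterozygous, was -1.56. Of 8 tested class I members, Tap1 and Tap2 rose and 0 fell (median 0.39). Over all 13540 tested genes, 4.02% were called lower, 5.53% higher and 9.55% either way (edgeR quasi-likelihood test, adjusted p under 0.05), and the median log2 fold change was -0.03. The antiviral values rest heavily on heterozygous 4, which is described after the members themselves.

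**Figure D1:**
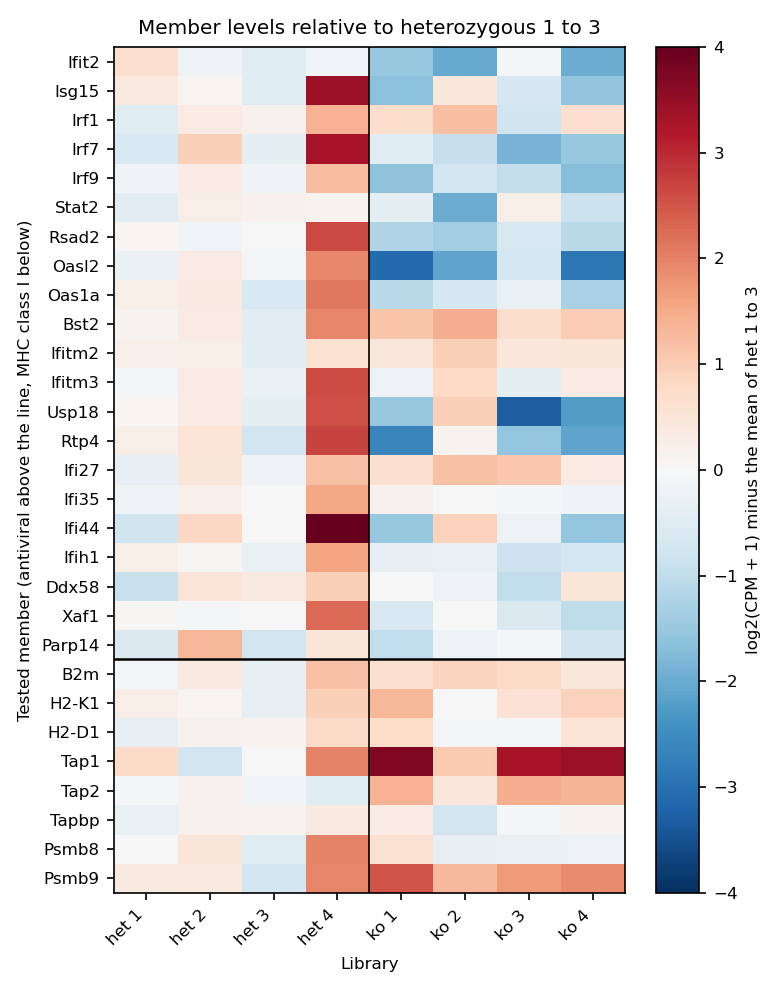
Level of each tested member (rows) in each library (columns) as log2(CPM + 1) minus the mean of heterozygous 1 to 3, with antiviral members above the black line and class I members below. Heterozygous 4 is the warmest column for most antiviral rows, and Tap1, Tap2 and Psmb9 are warm in the knockout columns.

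Irf9, the DNA-binding subunit of the interferon-activated complex, kept its call in more leave-one-out fits than the other 3 called antiviral members. In the order of their numbers, the heterozygotes had 31.1, 42.8, 31.0 and 81.9 CPM of Irf9 against 10.6, 20.4, 17.3 and 10.01 CPM in the knockouts. Every knockout library lay below every heterozygous one. Irf9 (chromosome 14, 55603985 to 55610030) fell 3.22-fold, from 46.7 ± 24.1 to 14.6 ± 5.09 CPM (SD, n = 4 each). Its log2 fold change was -1.69 ± 0.36 (SE, as for all log2 fold changes below), at an edgeR adjusted p of 0.0177. It kept its call in 6 of 8 fits that left out 1 library, and lost it without knockout 1 or knockout 4 (highest edgeR adjusted p = 0.0606). Without heterozygous 4 the log2 fold change was -1.26 ± 0.30 (edgeR adjusted p = 0.0375).

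Stat2, the partner of Irf9 in the complex, had 10.7, 18.2, 16.7 and 16.5 CPM in the heterozygotes against 11.1, 2.96, 17.8 and 7.82 CPM in the knockouts. The genotypes overlapped, and the log2 fold change of -0.64 ± 0.45 did not pass (edgeR adjusted p = 0.405). Irf7, which amplifies interferon production, had 4.75, 16.0, 5.89 and 84.9 CPM in the heterozygotes against 5.21, 3.66, 1.42 and 2.05 CPM in the knockouts. Heterozygous 4 lay far above the rest and heterozygous 1 inside the knockout range. Irf7 (chromosome 7, 141263183 to 141266499) fell 9.09-fold at the threshold (log2 fold change -3.18 ± 0.89, edgeR adjusted p = 0.0480). It kept this call in 2 of 8 fits that left out 1 library (without heterozygous 1 or 3) and had -1.52 ± 0.61 without heterozygous 4 (edgeR adjusted p = 0.164). Irf1, an activator of class I genes, had 4.65, 9.03, 7.98 and 20.1 CPM against 11.9, 17.3, 3.64 and 11.7 CPM. Its log2 fold change was 0.09 ± 0.52 (edgeR adjusted p = 0.939), and -0.02 with library size alone as the scaling.

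Among antiviral effectors, Oasl2, a member of the oligoadenylate synthetase family, had 23.6, 35.7, 26.9 and 110.3 CPM in the heterozygotes against 2.40, 5.75, 17.0 and 2.91 CPM in the knockouts. The groups did not overlap, and knockout 3 was the closest to the heterozygous range. Oasl2 (chromosome 5, 114896926 to 114912245) fell 7.04-fold (log2 fold change -2.82 ± 0.70, edgeR adjusted p = 0.0319). Its call held without heterozygous 1 or 3 or knockout 3 and was lost without heterozygous 2 or 4 or knockout 1, 2 or 4 (highest edgeR adjusted p = 0.0799). Without heterozygous 4 the log2 fold change was -2.03 ± 0.61.

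Rsad2 encodes viperin, a radical SAM enzyme that makes a chain-terminating nucleotide. The heterozygotes had 3.99, 3.40, 3.71 and 28.1 CPM, and the knockouts 1.02, 0.784, 1.99 and 1.21 CPM. Heterozygous 1 to 3 lay close together, above all knockout libraries and far below heterozygous 4. Rsad2 (chromosome 12, 26442743 to 26456452) fell 7.79-fold (log2 fold change -2.96 ± 0.78, edgeR adjusted p = 0.0386). The call was lost without heterozygous 4 (-1.55 ± 0.64, edgeR adjusted p = 0.177) and without knockout 1, 2 or 4. The groups did not overlap for Irf9, Oasl2, Rsad2 and Ifih1, 4 of 21 antiviral members, all with knockout lower. Knockout lay wholly below heterozygous in 7.9% of all tested genes.

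**Figure D2:**
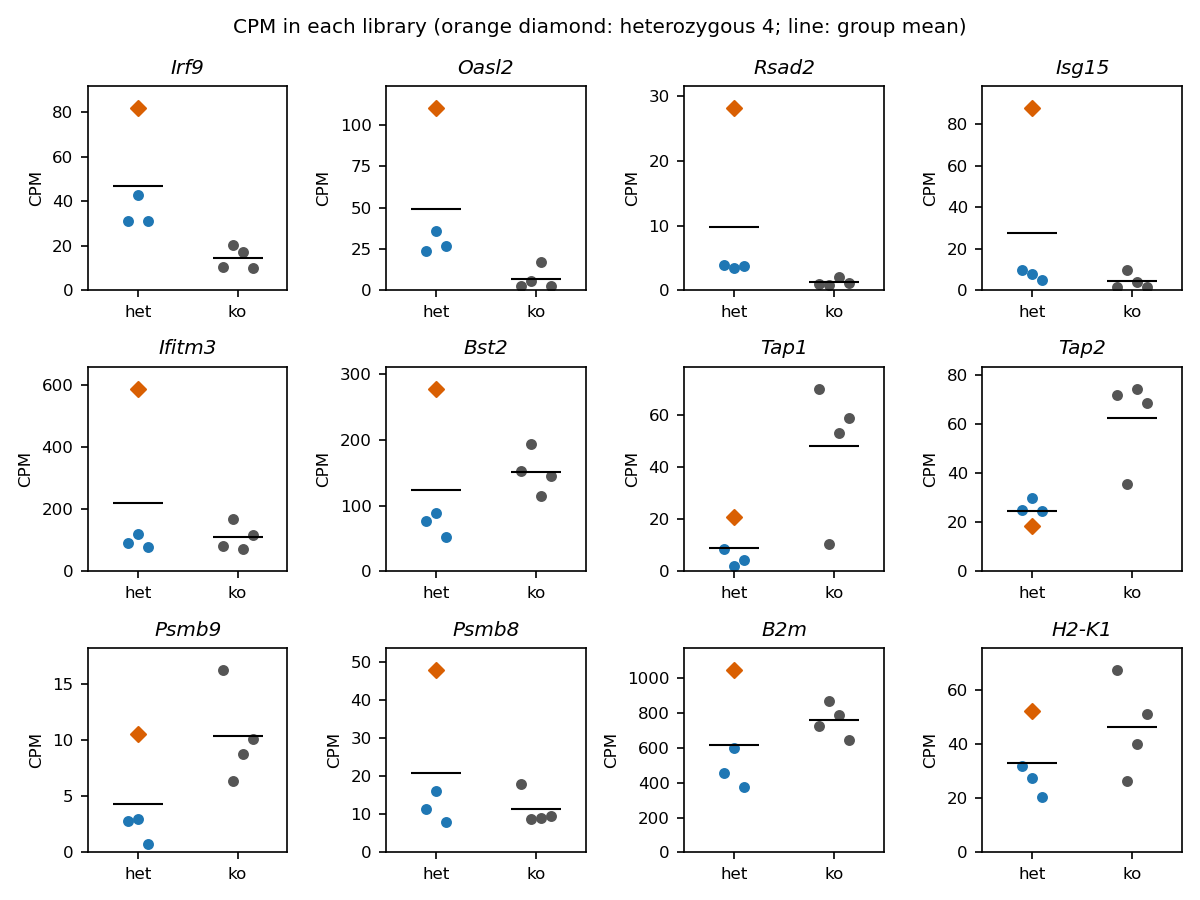
CPM of 12 members in each library, with heterozygous (het) and knockout (ko) libraries side by side, each panel on its own linear axis from 0. Orange diamonds mark heterozygous 4 and lines mark group means. For Irf9, Oasl2 and Rsad2 all knockout points lie below all heterozygous points, and for Tap2 they lie above.

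Isg15, Usp18 and Rtp4 had lower means in knockout and were not called. Isg15, a ubiquitin-like modifier, had 9.97, 7.75, 4.95 and 87.7 CPM in the heterozygotes against 1.69, 10.02, 4.21 and 1.79 CPM in the knockouts. Leaving heterozygous 4 aside, the genotypes overlapped, and the log2 fold change of -2.67 ± 0.95 (edgeR adjusted p = 0.107) became -0.77 ± 0.66. Usp18, the protease that removes Isg15 and restrains the receptor, had 9.31, 10.9, 6.70 and 57.2 CPM against 2.40, 17.9, 0 and 1.10 CPM. Knockout 2 was higher than heterozygous 1 to 3 here, and the log2 fold change of -2.01 was -0.74 ± 1.24 without heterozygous 4. Rtp4, an interferon-inducible receptor transporter, had 17.3, 21.9, 8.24 and 100.2 CPM against 1.53, 16.5, 4.33 and 2.65 CPM, and its log2 fold change of -2.60 ± 0.88 did not pass (edgeR adjusted p = 0.0916). Rtp4 was called in the fit without knockout 2 (-3.69, edgeR adjusted p = 0.0317) and had -1.33 ± 0.74 without heterozygous 4 (0.309).

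Ifi44 had 1.23, 5.84, 2.82 and 60.0 CPM in the heterozygotes against 0.358, 6.36, 2.28 and 0.317 CPM in the knockouts. Xaf1, a pro-apoptotic factor, had 14.1, 13.2, 13.3 and 68.4 CPM against 8.38, 13.8, 8.77 and 6.23 CPM. Oas1a, which makes the oligoadenylates that activate RNase L, had 3.13, 3.50, 1.32 and 14.2 CPM against 0.664, 1.22, 1.88 and 0.433 CPM. In all 3 genes heterozygous 4 was the highest of 8 libraries, and heterozygous 1 to 3 overlapped with knockout libraries. Their log2 fold changes were -2.96, -1.56 and -2.41, and without heterozygous 4 they were -0.50, -0.54 and -1.33. None was called by edgeR in either fit. DESeq2 called Oas1a lower over all 8 libraries (adjusted p = 0.0201) and gave no adjusted p for Ifi44 and Xaf1.

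The cytosolic RNA sensors Ifih1 and Ddx58 are themselves induced by interferon. Ifih1 had 3.42, 2.87, 2.01 and 10.2 CPM in the heterozygotes against 1.99, 2.003, 1.08 and 1.27 CPM in the knockouts, a log2 fold change of -1.55 ± 0.65 (edgeR adjusted p = 0.163). Its lowest heterozygous value lay just above the highest knockout value. Ddx58 had 10.4, 29.0, 26.2 and 40.0 CPM against 20.5, 17.2, 9.68 and 28.4 CPM and overlapped throughout (log2 fold change -0.48 ± 0.41). Parp14, an ADP-ribosyltransferase, was at 3.34 ± 2.98 and 1.47 ± 0.750 CPM (SD, n = 4 each).

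Ifit1, Ifit2 and Ifit3 encode a family that binds viral RNA. Ifit1 had 10, 0, 28 and 337 counts in heterozygous libraries and 0 counts in all 4 knockout libraries, where a count of 0 allows up to 0.0360 CPM over the group (3 counts). Over the pooled libraries it was thus at least 169.5-fold higher in heterozygous. This bound allows for counting error only and not for the spread between libraries, and 89.9% of the heterozygous counts came from heterozygous 4. Ifit3 had 4, 38, 0 and 184 counts against 2, 1, 3 and 5, of which heterozygous 4 held 81.4% of the heterozygous counts. Neither gene had enough counts in enough libraries to enter the test over all 8, though Ifit1 entered 5 of the fits that left out 1 library. It was called lower in 1 of them, without heterozygous 2 (edgeR adjusted p = 0.0327), and not in the other 4 (highest 0.0983). Ifit2 differed from them: heterozygous 4 had 2.72 CPM, inside the 1.88 to 5.22 CPM of heterozygous 1 to 3, and knockout libraries had 0.409, 0, 2.79 and 0.0289 CPM. Its log2 fold change of -1.94 ± 1.23 was not called by edgeR with all libraries. It was called without knockout 3 (-4.32, edgeR adjusted p = 0.0488) and by limma voom with sample weights (-3.75, adjusted p = 0.0375). Mx1 was at 14 counts in heterozygous 4, 0 in heterozygous 1 to 3, and 2, 1, 0 and 0 in knockout libraries.

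Bst2, Ifitm2, Ifitm3, Ifi27 and Ifi35 were not called with all libraries, and in none of these 5 did the knockout libraries lie wholly below heterozygous 1 to 3. Bst2, the tetherin that holds budding virus at the surface, had 76.1, 88.3, 52.2 and 277 CPM in the heterozygotes against 152, 194, 115 and 144.5 CPM in the knockouts. All knockout libraries lay above heterozygous 1 to 3 and below heterozygous 4. The log2 fold change was 0.29 ± 0.44 with all libraries (edgeR adjusted p = 0.724), and without heterozygous 4 it was 1.08 ± 0.23 and called (edgeR adjusted p = 0.0271). That was the 1 of 8 leave-one-out fits in which Bst2 was called (highest edgeR adjusted p = 0.971). Ifitm2, which blocks virus entry, had knockout values above heterozygous 1 to 3 as well, with knockout 2 also above heterozygous 4, at 123, 124.5, 78.9 and 165 CPM against 148, 206, 142 and 149 CPM, without passing in either fit (log2 fold changes 0.39 and 0.57). Ifitm3 had 92.0, 119, 78.0 and 587 CPM against 83.2, 167, 73.3 and 116.5 CPM, and its log2 fold change went from -0.996 ± 0.59 to 0.20 ± 0.29 without heterozygous 4. Ifi27 had 12.4, 22.4, 13.9 and 36.3 CPM against 24.99, 36.8, 33.9 and 19.9 CPM, and Ifi35 had 30.6, 39.2, 33.6 and 102 CPM against 38.8, 33.7, 32.6 and 31.0 CPM, so neither separated the genotypes.

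Per length, over the exons of GENCODE M21, B2m was the most abundant member at 720 CPM per kilobase in heterozygous and 881 in knockout libraries. Ifitm3, Ifitm2 and Bst2 followed in heterozygous libraries at 323, 187 and 156 CPM per kilobase, where Ifitm3 includes the 587 CPM of heterozygous 4. The 4 called antiviral members were lower in level, between 2.59 (Rsad2) and 15.7 (Oasl2) CPM per kilobase in heterozygous libraries. Reads of 50 bases cannot always be assigned: 51.2% of the 50-base words of Ifit3 transcripts also occur in Ifit3b, 57.6% of those of Oas1a in Oas1g, and 48.5% of those of Ifitm2 in other genes. The values of these 3 members are therefore uncertain. For Irf9, Irf7, Rsad2, Oasl2 and Tap1 the shared part was between 0 and 3.33%, and for Tap2 11.6%, of which 9.22% lay in Gm15821.

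Heterozygous 4 held the highest value of the 4 heterozygous libraries for 18 of 21 tested antiviral members and 7 of 8 class I members, against 27.3% of all tested genes. It was the highest of all 8 libraries for 16 and 4 of them, against 12.5%. Its CPM exceeded the mean of heterozygous 1 to 3 by more than 2-fold for 16 of 21 antiviral members, against 5.31% of all tested genes, and by more than 5-fold for 9, against 1.03%. The ratio ran from 0.836 (Ifit2) to 18.2 (Ifi44) in antiviral and from 0.702 (Tap2) to 4.82 (Psmb9) in class I members. The median ratio was 3.84 and 2.08, and 0.972 over all tested genes. Ifit2, Stat2 and Parp14 were the antiviral members in which another heterozygous library was the highest, and Tap2 the class I member.

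**Figure D3:**
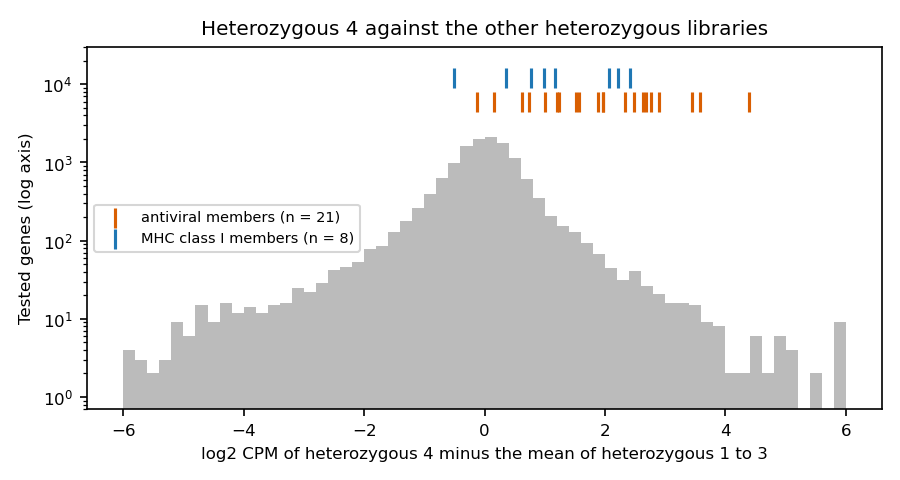
Distribution over tested genes (grey, log count axis) of the log2 CPM of heterozygous 4 minus the mean of heterozygous 1 to 3, with values past the axis ends placed in the end bins. Ticks mark antiviral (orange) and class I (blue) members, most of which lie to the right of 0, while Tap2 lies to its left.

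The same library stood out in the other genes of the response. Of 39 other tested interferon-stimulated genes, heterozygous 4 was the highest heterozygous library for 33. Of 14 interferon genes, 12 had 0 counts in every library, Ifnk had 2 counts in heterozygous 3 and Ifnz 1 count in knockout 1. Counts of 0 allow up to 0.0866 to 0.319 CPM in a library, so in heterozygous 4 none of the 14 was detectable at this depth.

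Other transcripts also set heterozygous 4 apart. Of the 10 genes outside the members with the largest excess over the other heterozygous libraries, Ttr, Folr1 and Sostdc1 are known as genes of the choroid plexus epithelium and Krt8 and Krt18 are epithelial keratins. Defb11, Calml4, Prr32, Fxyd1 and Slc7a3 complete the 10. Slc7a3 was at only 1.55 CPM in heterozygous 4, against 0, 0 and 0.0854 CPM in heterozygous 1 to 3. Knockout 1 to 4 had far more of it, at 49.1, 17.7, 17.2 and 88.6 CPM (log2 fold change 6.52, edgeR adjusted p = 0.00467). Slc7a3 thus met the minimum mean level for this list through the knockout libraries. Ttr was at 8753 CPM in heterozygous 4 against 299, 7.12 and 145 CPM in heterozygous 1 to 3. Knockout 3 and 4 had 815 and 1096 CPM of Ttr, more than heterozygous 1 to 3. Their antiviral members summed to 493 and 540 CPM, against 418 to 627 CPM in heterozygous 1 to 3 and 1983 CPM in heterozygous 4. Abundant members such as Bst2, Ifitm2 and Ifitm3 weigh most in these sums. As mean log2 CPM, the antiviral members were at 2.82 and 2.35 in knockout 3 and 4. Heterozygous 1 to 3 were higher, at 3.31 to 3.99, and heterozygous 4 was at 5.53. Microglia and macrophage markers summed to 2506 CPM in heterozygous 4, against 2232 and 2333 CPM in heterozygous 1 and 2, whose antiviral members summed to 490 and 627 CPM. For 9 of these 16 markers heterozygous 4 was the highest of all 8 libraries, against 12.5% of all tested genes. The median log2 excess of the markers over heterozygous 1 to 3 was 0.71. The 7 class II presentation genes summed to 23.2 CPM in heterozygous 4 and 6.09 to 14.1 CPM elsewhere. The 10 lymphoid and plasmacytoid markers summed to 14.9 CPM, inside the 11.2 to 25.9 CPM of the other libraries, and 3 of them (Cd3e, Cd3g and Nkg7) were at 0 counts in every library. The part of choroid plexus, microglia and class II transcripts in the values of heterozygous 4 was not tested.

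Leaving out heterozygous 4 moved the log2 fold change upward for 20 of 21 antiviral and 7 of 8 class I members, against 47.7% of all genes tested in both fits. In each of these 20 and 7 members heterozygous 4 lay above the mean of heterozygous 1 to 3. The direction of the move follows from this and is no separate result. The median of the antiviral members went from -1.56 to -0.74 and that of the class I members from 0.39 to 0.74. In that fit 7.01% of all genes were called, 2.8% lower and 4.21% higher. Among antiviral members Irf9 fell and Bst2 rose, and among class I members Tap1, Tap2 and Psmb9 rose. Leaving out a library high in a gene favours a rise in knockout, and Bst2 and Psmb9 were called in no other leave-one-out fit. Of 21 antiviral members 16 still had a log2 fold change below 0, against 17 with all libraries and 51.6% of all genes. The knockout libraries lay below heterozygous 1 to 3 for the same 4 members as before, against 10.8% of all tested genes, and above them for Bst2 and Ifitm2 and for 4 class I members (Tap1, Tap2, Psmb9 and B2m), against 12.5%. Heterozygous 1 to 3 averaged 28.7 ± 6.24 CPM of Oasl2 and 3.70 ± 0.295 CPM of Rsad2 (SD, n = 3), above the 7.02 ± 6.83 and 1.25 ± 0.524 CPM of the knockouts (SD, n = 4).

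**Figure D4:**
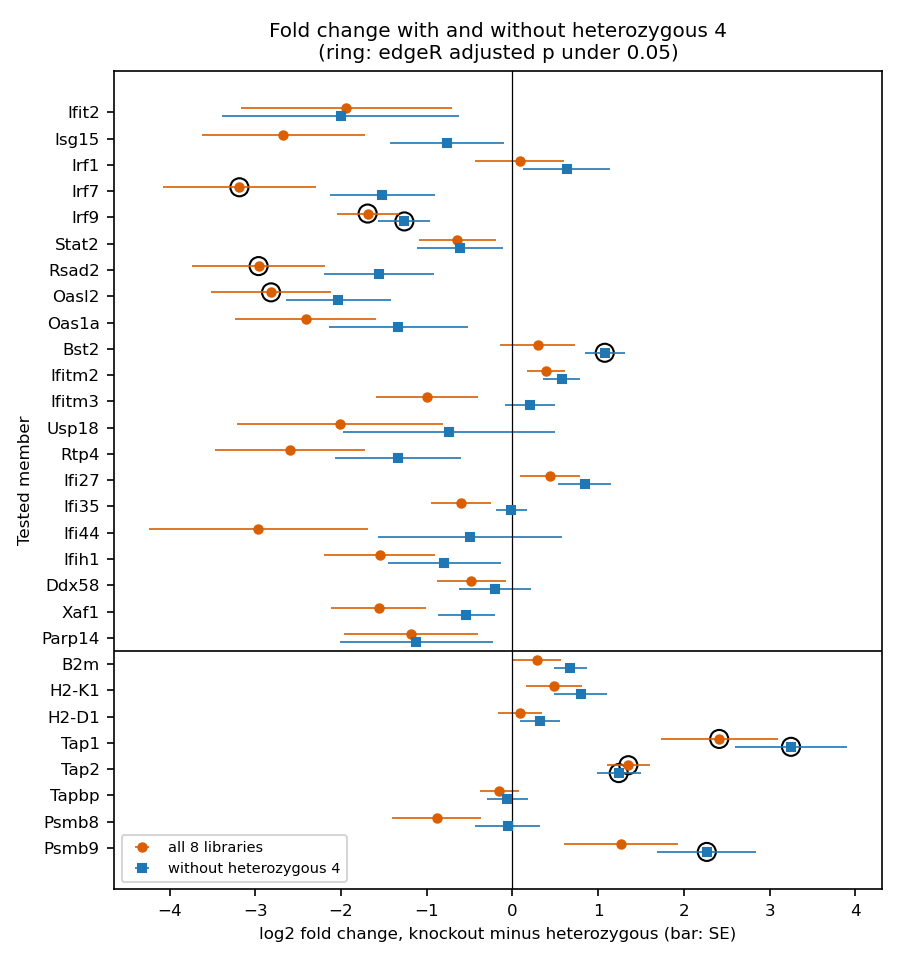
Log2 fold change, knockout minus heterozygous, of each tested member with its SE, with all 8 libraries (orange circles) and without heterozygous 4 (blue squares). Rings mark an edgeR adjusted p under 0.05, and blue squares lie to the right of the orange circles for all members but Ifit2 and Tap2.

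Among knockout libraries, knockout 2 was most often the highest for the antiviral members and was the lowest for Tap1 and Tap2. It was the highest knockout library for 12 of 21 antiviral members, against 29.1% of all tested genes, and for 1 of 8 class I members. For the 39 other tested interferon-stimulated genes it was so for 10 (25.6%), while heterozygous 4 led its genotype for 33. Averaged over the antiviral members, log2 CPM was 3.45, 3.99, 3.31 and 5.53 in the heterozygotes against 2.57, 3.28, 2.82 and 2.35 in the knockouts. For the class I members it was 4.93, 4.94, 4.53 and 5.99 against 6.32, 5.19, 5.82 and 5.96. Heterozygous 4 thus lay inside the knockout range for class I and above all libraries for the antiviral group, and knockout 2 lay nearest to heterozygous 1 to 3 in both.

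**Figure D5:**
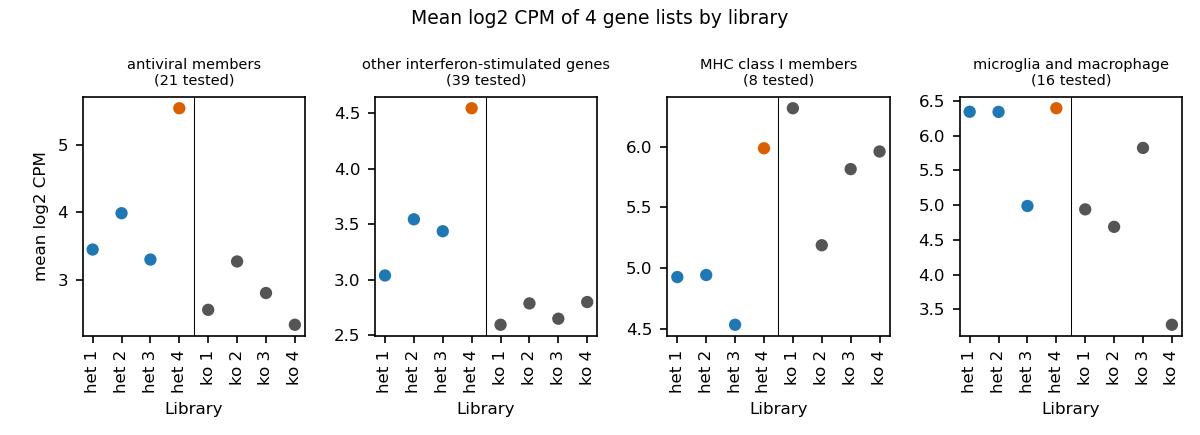
Mean log2 CPM of the tested genes of 4 lists in each library, with heterozygous 1 to 3 in blue, heterozygous 4 in orange and knockout in grey, each panel on its own axis. Antiviral and other interferon-stimulated genes peak in heterozygous 4, class I members are high there and in knockout, and microglia markers are about as high in heterozygous 1 and 2 as in 4.

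Of the class I members, the 2 transporter subunits rose. Tap2 had 24.97, 30.1, 24.6 and 18.6 CPM in the heterozygotes against 71.7, 35.6, 74.3 and 68.7 CPM in the knockouts. All knockout libraries lay above all heterozygous ones, with knockout 2 the closest and heterozygous 4 the lowest of all. It was the 1 of 8 class I members without overlap, against 9.7% of all tested genes with knockout wholly higher. Tap2 (chromosome 17, 34204479 to 34216321) rose 2.55-fold, from 24.6 ± 4.67 to 62.6 ± 18.1 CPM (log2 fold change 1.35 ± 0.25, edgeR adjusted p = 0.00930). Leaving out any 1 library kept the call, and in those 8 fits the log2 fold change ran from 1.24 to 1.55. The call was lost with the microglia and macrophage covariate (1.39, edgeR adjusted p = 0.0670), with the other-cell covariate (1.87, 0.705) and without heterozygous 2 and knockout 1 (1.39, 0.0553).

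Tap1 had 8.45, 2.23, 4.48 and 20.8 CPM in the heterozygotes against 70.2, 10.5, 53.3 and 59.1 CPM in the knockouts. Knockout 1, 3 and 4 were far above every heterozygous library, while knockout 2 lay below heterozygous 4. Tap1 (chromosome 17, 34187556 to 34197225) rose 5.32-fold, just past the threshold (log2 fold change 2.41 ± 0.68, edgeR adjusted p = 0.0497). The call held without heterozygous 4 (3.25 ± 0.65, edgeR adjusted p = 0.0206) or knockout 2, and was lost in the 6 fits without another library (highest edgeR adjusted p = 0.123) and in edgeR with the size factors of DESeq2.

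Psmb9 and Psmb8 encode immunoproteasome subunits that change which peptides are cut. Psmb9 had 2.85, 2.97, 0.768 and 10.6 CPM in the heterozygotes against 16.3, 6.36, 8.83 and 10.1 CPM in the knockouts. All knockout libraries lay above heterozygous 1 to 3, and heterozygous 4 lay among them. The log2 fold change was 1.27 ± 0.66 (edgeR adjusted p = 0.260), and 2.27 ± 0.58 without heterozygous 4 (edgeR adjusted p = 0.0461). That was the 1 of 8 leave-one-out fits in which Psmb9 was called (highest edgeR adjusted p = 0.480). Limma voom with sample weights also called it over all 8 libraries (2.42, adjusted p = 0.0282). Psmb8 had 11.3, 16.2, 7.94 and 47.9 CPM against 17.9, 8.80, 8.997 and 9.58 CPM, with no separation outside heterozygous 4 (log2 fold change -0.88 ± 0.52 with it and -0.06 ± 0.37 without).

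These 4 genes are neighbours on chromosome 17. Psmb9 and Tap1 lie head to head on opposite strands with 225 bases between them, Psmb8 starts 969 bases after Tap1 on its strand, and Tap2 follows after another 3024 bases. Within this cluster Psmb8 was the gene whose knockout libraries did not lie above heterozygous 1 to 3. The constitutive subunits Psmb5 and Psmb6, whose places in the proteasome Psmb8 and Psmb9 take, had log2 fold changes of 0.02 ± 0.16 and -0.03 ± 0.16.

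The class I chains were not called. B2m had 455, 602, 373 and 1048 CPM in the heterozygotes against 726, 868, 791 and 646 CPM in the knockouts. All knockout libraries lay above heterozygous 1 to 3 and below heterozygous 4 (log2 fold change 0.29 ± 0.28, edgeR adjusted p = 0.561). Without heterozygous 4 it was 0.68 ± 0.19 and missed the threshold (edgeR adjusted p = 0.0656). H2-K1 had 31.8, 27.4, 20.5 and 52.0 CPM against 67.3, 26.2, 39.9 and 51.0 CPM. H2-D1 had 71.3, 100.6, 99.5 and 152 CPM against 148.5, 87.0, 85.2 and 129.5 CPM, with a log2 fold change of 0.09 ± 0.25 that was -0.03 with library size alone as the scaling. Tapbp, which bridges class I to the transporter, had 97.1, 135, 134 and 155.5 CPM against 150.002, 72.0, 116 and 131 CPM. Neither heavy chain and not Tapbp was called (edgeR adjusted p = 0.390, 0.863 and 0.718). Nlrc5 was at 17 counts in heterozygous 4, 0 in heterozygous 1 to 3 and 0, 0, 0 and 2 in knockout libraries.

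Upstream of the members, 1 of 15 tested genes for interferon receptors, kinases and regulators rose and 1 fell, against 5.53% and 4.02% of all tested genes. Ifngr2, a chain of the receptor for interferon gamma, had 139.6, 163, 145.6 and 149.8 CPM in the heterozygotes against 378, 263, 341 and 308 CPM in the knockouts. It rose 2.16-fold (log2 fold change 1.11 ± 0.14, edgeR adjusted p = 0.00202), and heterozygous 4 lay between heterozygous 2 and 3. Ptpn6, a phosphatase of blood cells that restrains Jak kinases, had 28.9, 36.2, 12.7 and 20.9 CPM against 7.51, 3.66, 10.9 and 4.33 CPM and fell 3.73-fold (edgeR adjusted p = 0.0204).

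Of 18 tested sensors and adaptors, 2 fell and 0 rose, against 4.02% and 5.53% of all tested genes. Dhx58, a relative of Ifih1 and Ddx58, fell from 4.10 ± 4.37 to 0.391 ± 0.184 CPM, and Adar, the RNA-editing enzyme, from 37.5 ± 12.6 to 15.03 ± 5.85 CPM (SD, n = 4 each). Their edgeR adjusted p of 0.0367 and 0.0398 became 0.152 and 0.0998 without heterozygous 4. Of 39 other tested interferon-stimulated genes, 4 fell and 0 rose, against the same 4.02% and 5.53%. Among these 39, 35 had a log2 fold change below 0, against 52.1% of all tested genes. Irgm2 and Igtp, GTPases induced by interferon gamma, fell 5.40-fold and 2.75-fold, Dtx3l, a ubiquitin ligase, 2.89-fold and Ifi27l2a 6.36-fold. Without heterozygous 4, Irgm2 and Dtx3l kept their calls (log2 fold changes -2.02 and -1.64, edgeR adjusted p = 0.0163 and 0.0202), and Igtp and Ifi27l2a did not (0.0592 and 0.0760). Dtx3l was lower in heterozygous 4 (20.03 CPM) than in heterozygous 2 and 3 (33.8 and 36.6 CPM).

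Of 16 other tested genes of class I and peptide loading, 1 rose and 0 fell, against 5.53% and 4.02% of all tested genes. H2-M3, a nonclassical class I heavy chain, had 9.40, 9.35, 9.65 and 12.7 CPM in the heterozygotes against 27.9, 13.2, 22.2 and 21.2 CPM in the knockouts. It rose 2.05-fold (log2 fold change 1.04 ± 0.27, edgeR adjusted p = 0.0393), and the groups did not overlap. The fit behind these values has no covariate. With the mean of the microglia and macrophage list as a covariate, or with a mean over 5 lists of other cell types, no member was called, and the antiviral median was -0.89 and -1.83. The class I median was 0.68 and 0.72 in these fits, with Tap2 at 1.39 and 1.87 and Tap1 at 2.71 and 4.42. Over all genes 229 and 0 were called in these fits. Without heterozygous 2 and knockout 1, the libraries with Y-linked transcripts and next to no Xist, no member was called either and 300 genes were, with an antiviral median of -1.75. In that fit Irf9 had a log2 fold change of -1.58 (edgeR adjusted p = 0.102) and Tap2 of 1.39 (0.0553).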

How the data were processed

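The deposited file holds raw counts per gene symbol for 8 libraries, the authors' own counts, per the labels, from RNA amplified with SMART-Seq v4 and read as single ends of 50 bases. Alignment and assembly tools in the submitters' processing notes are TopHat2 (0.7) and Cufflinks (2.2.1), with build mm10. The counting program, its strand setting and its treatment of multi-mapping reads were not given in the sources used here. Counts were analysed in R 4.3.3 with edgeR 4.0.16: filterByExpr (minimum count 10, minimum total 15), TMM scaling, the robust quasi-likelihood F-test and Benjamini-Hochberg adjustment over 13540 genes, called at an adjusted p under 0.05. The SE is the log2 fold change divided by the square root of F. Mean log2 CPM used a prior count of 2. DESeq2 1.42.0 and limma 3.58.1 served as alternatives. Floors of 3 counts cover counting error only. Libraries within a genotype differed by more than sampling noise (chi-square over its degrees of freedom, 29.0 or more). The members and gene lists were chosen with earlier results of these data known. Values in every library are given for called members, for the 6 antiviral and 4 class I members with the largest mean CPM and for members with a library that stands apart. Pathway lists name up to 4 called genes by p, or the 2 most abundant. Genes set apart in heterozygous 4 are the 10 with the largest log2 excess over the highest of heterozygous 1 to 3, at a mean of at least 5 CPM, without Gm and Rik names. Positions come from RefSeq on GRCm38.p6, the same build as mm10.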

Additional observations from a re-analysis of the deposited data

Results flagged for a closer look

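In each genotype of 4 libraries, a value was set apart when its gap to the nearest other library as a share of the range exceeded Dixon's 95% critical value, which chance gives in about 1 of 20 groups. Heterozygous 4 stood above heterozygous 1 to 3 in this way for 12 of 21 tested antiviral members and 0 of 8 tested class I members, against 1.28% of all tested genes. In heterozygous 4 the values were Ifitm3 587, Bst2 277, Oasl2 110.3, Ifi35 102, Rtp4 100.2, Isg15 87.7 and Irf7 84.9 CPM. Xaf1 followed at 68.4, Ifi44 at 59.98, Usp18 at 57.2, Rsad2 at 28.1 and Oas1a at 14.2 CPM. Heterozygous 4 also stood apart in 3 members that were not tested, Ifit1 at 18.7, Nlrc5 at 0.943 and Mx1 at 0.777 CPM, the last 2 with 0 counts in heterozygous 1 to 3. Isg15, Ifitm3 and Ifi44 at these values exceeded every other library, and without it their log2 fold changes were -0.77, 0.20 and -0.50.

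Some knockout libraries stood apart too. Knockout 2 was high for Ifitm2 at 206 CPM (142 to 149 in the others) and Usp18 at 17.9 CPM (0 to 2.40), and low for Tap2 at 35.6 CPM (68.7 to 74.3). Knockout 3 was high for Ifit2 at 2.79 CPM (0 to 0.409), and knockout 1 for Psmb8 at 17.9 CPM (8.80 to 9.58). Knockout 4 had 0.0577 CPM of Nlrc5, from 2 counts, with 0 in the other 3.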

How the results depend on the processing

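Over all genes, 1293 were called by edgeR, 2229 by DESeq2, 2266 by limma voom with sample weights, 229 with the microglia and macrophage covariate, 0 with the other-cell covariate (884 at an unadjusted p under 0.05), 300 without heterozygous 2 and knockout 1, and 579 to 1347 with 1 library left out. Antiviral members called lower numbered 4, 2 with limma voom (Irf9 and Oasl2), 3 with no low-count filter (Ifit1, Irf9 and Rsad2), a mean of at least 5 CPM (Irf7 lost) or limma voom with sample weights (Ifit2, Irf9 and Oasl2), 4 with DESeq2 (Oas1a called, Rsad2 among 6 members without an adjusted p), 0 with either covariate or without heterozygous 2 and knockout 1, and 0 to 4 with 1 library left out. Class I members called higher numbered 2. There was 1 (Tap2) with DESeq2 size factors in edgeR, library size alone, no low-count filter, a mean of at least 5 CPM or limma voom, 0 with either covariate or without heterozygous 2 and knockout 1, and 1 to 3 with 1 library left out. The antiviral median ran from -1.80 to -0.74 with 1 library left out, and that of class I from 0.21 to 0.74. Library size alone made 42.6% of calls higher, against 57.9%, and moved the median of all genes by -0.12. With the replicate block, 868 genes and 2 antiviral members (Irf9 and Oasl2) were called, Tap1 and Tap2 kept their calls, and Irf7 lost its (edgeR adjusted p = 0.132). Same-numbered libraries deviated together with correlations of 0.06, 0.21, -0.05 and 0.02, so the numbers were not taken as pairs.

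No reversed value had been called. Irf1 (0.09) was -0.021 with library size alone, -0.0089 with limma voom, -0.21 and -2.51 with the microglia and other-cell covariates, and -0.20 to 0.63 with 1 library left out. H2-D1 (0.09) was -0.027 with library size alone, -0.0497 and -0.30 with these covariates, -0.086 without heterozygous 2 and knockout 1, and -0.062 to 0.32 with 1 left out. With the other-cell covariate Ifit2 was at 5.07, Stat2 at 0.90 and Bst2 at -0.40. Ifitm3 ran from -1.28 to 0.20 and Tapbp from -0.28 to 0.025 with 1 library left out, above 0 without heterozygous 4 for Ifitm3 and without knockout 2 for Tapbp. The cause of these shifts was not tested. Libraries of 9.11 M counts and a floor of up to 0.319 CPM limit what can be seen for interferon genes, Mx1 and Nlrc5.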
